A study of Mus musculus with 7 samples.

Results

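Chromatin accessibility was compared between RAW264.7 cells given RANKL and RAW264.7 cells without it, across all 7 ATAC-seq libraries of the study. ATAC-seq maps open DNA by letting a transposase insert sequencing adapters where chromatin is accessible, and RAW264.7 is a mouse macrophage-like line that becomes osteoclast-like under RANKL. The 4 libraries with RANKL were RANKL at 50 ng/ml for 4 h (2 libraries) and RANKL at 50 ng/ml with the BET inhibitor I-BET at 500 nM for 4 h (2 libraries). The 3 libraries without RANKL were untreated cells (2 libraries) and I-BET at 500 nM for 4 h (1 library, labelled replicate 2). Joining the peaks of the 7 lists gave 344401 regions on mm10, of which 43170 held a peak in all 7 libraries, and these shared regions are compared here. The cells were 1 line throughout, and the labels also name bone marrow as the source. Separate cultures are not stated for the replicates, so p-values measure the spread between these libraries, which may be technical. I-BET was present in 2 of the 4 libraries with RANKL and in 1 of the 3 without it.

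RANKL binds its receptor RANK on precursors of the macrophage lineage. RANK signals through TRAF adaptors to NF-kB and to MAP kinases, which raise AP-1, and these factors together with calcium signalling induce NFATc1, the transcription factor that commits the cell to the osteoclast fate. Factors of the macrophage and interferon programmes, such as IRF8, restrain that fate, and BET proteins bind acetylated histones and help RNA polymerase leave the promoter.

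A shared region was given, in each library, the highest deposited fold of its peaks, and regions were ranked within the library from 0 (lowest fold) to 100 (highest). Values below are these ranks, a position among shared regions of the same library and not an amount of DNA. Values of a group with 2 libraries are given for replicate 1 and then replicate 2. A region was counted as higher with RANKL when all 4 libraries with RANKL ranked above all 3 without it, and as lower in the reverse case, and the gap is the distance in rank points between the nearest libraries of the sides. With 35 ways of dividing 7 libraries into 4 and 3, the smallest two-sided exact permutation p of a single region is 0.0571, so no region could pass 0.05 alone. The test across all regions was therefore limma on normal scores of the ranks, which puts each library on a standard normal scale.

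The files hold no read totals. Background pileup, solved from the deposited folds as a proxy for depth, was 2.04 to 13.8 in the libraries with RANKL and 1.11 to 2.54 in those without it, and the median pileup at the summits of shared regions was 50 to 256 with RANKL and 21 to 45 without. RANKL+I-BET replicate 2 was the deepest on both measures. Untreated replicate 1 stood apart, with a Spearman correlation of 0.756 to 0.873 with the other libraries, and 11.6% of its shared regions had a summit pileup of 10 or less. Libraries also followed their replicate number: RANKL replicate 1 correlated at 0.948 with RANKL+I-BET replicate 1, and RANKL replicate 2 at 0.971 with RANKL+I-BET replicate 2, against 0.880 between the RANKL replicates. Peaks lay at all 10 macrophage markers in all 7 libraries and at 8 of 9 osteoclast markers, against 4 of 6 B lymphocyte, 4 of 7 T lymphocyte, 4 of 8 fibroblast and osteoblast, and 2 of 8 granulocyte and erythroid markers. No library had a peak at Cd8a, Hba-a1 or Hbb-bs. The granulocyte and erythroid markers held 11 to 16 peaks per library with RANKL and 9 to 10 without it, and the fibroblast and osteoblast markers 38 to 63 with RANKL and 43 to 47 without it.

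**Figure D1:**
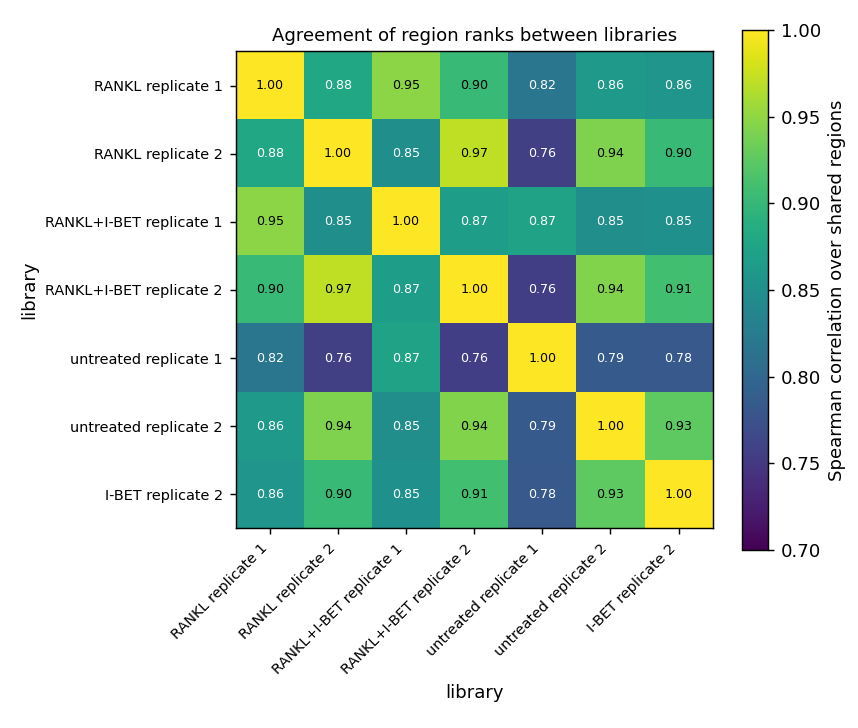
Spearman correlation of region ranks between each pair of the 7 libraries over 43170 shared regions, on a colour scale from 0.7 (dark) to 1 (light). Libraries with the same replicate number lie close together among those with RANKL (0.95 and 0.97), and untreated replicate 1 has the lowest values (0.76 to 0.87).

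Promoters that overlapped regions standing apart between the sides are shown first, because here the sequence of a gene's start can be set beside its accessibility. Each is RefSeq's window from 250 bases before to 50 bases after the gene's start on GRCm38.p6, 5′ to 3′ on the gene's strand, with matches to 10 motifs in capitals. The motifs, searched on both strands, were NF-kB GGANTTTCC, AP-1 TGANTCA, CRE TGACGTCA, E-box CACGTG, ETS GGAAGT, PU.1 GAGGAAGT (which contains the ETS letters), IRF GAAANNGAA, C/EBP TTGCNNAA, RUNX TGTGGT and NRF1 GCGCATGCG. Gne, the enzyme that starts sialic acid synthesis, was higher with RANKL (chr4:44084128-44084427, minus strand). Asb10, which encodes an ankyrin repeat protein with a SOCS box, was lower with RANKL (chr5:24540929-24541228, minus strand), and so was Gbp5, an interferon-induced GTPase gene (chr3:142496684-142496983, plus strand). The promoter of Irf1, a transcription factor of the interferon response, was lower in the fit with replicate numbers described below and was chosen after its values were seen (chr11:53769764-53770063, plus strand).
Gne: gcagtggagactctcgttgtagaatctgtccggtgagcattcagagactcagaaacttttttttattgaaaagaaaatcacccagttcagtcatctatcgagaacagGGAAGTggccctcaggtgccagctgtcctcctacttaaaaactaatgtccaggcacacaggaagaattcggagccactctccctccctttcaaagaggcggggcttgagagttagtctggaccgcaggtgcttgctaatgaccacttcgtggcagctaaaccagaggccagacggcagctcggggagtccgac
Asb10: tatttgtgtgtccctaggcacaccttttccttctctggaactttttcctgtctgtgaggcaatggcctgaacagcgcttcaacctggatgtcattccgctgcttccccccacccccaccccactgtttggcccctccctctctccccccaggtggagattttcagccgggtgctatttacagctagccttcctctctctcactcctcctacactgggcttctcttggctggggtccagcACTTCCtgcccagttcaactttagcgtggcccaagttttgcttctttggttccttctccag
Gbp5: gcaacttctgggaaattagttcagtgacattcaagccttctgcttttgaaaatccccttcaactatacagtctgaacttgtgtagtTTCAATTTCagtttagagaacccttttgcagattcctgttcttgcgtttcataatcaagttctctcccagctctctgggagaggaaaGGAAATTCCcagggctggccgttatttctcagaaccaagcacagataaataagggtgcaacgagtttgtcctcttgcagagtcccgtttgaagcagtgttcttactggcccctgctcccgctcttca
Irf1: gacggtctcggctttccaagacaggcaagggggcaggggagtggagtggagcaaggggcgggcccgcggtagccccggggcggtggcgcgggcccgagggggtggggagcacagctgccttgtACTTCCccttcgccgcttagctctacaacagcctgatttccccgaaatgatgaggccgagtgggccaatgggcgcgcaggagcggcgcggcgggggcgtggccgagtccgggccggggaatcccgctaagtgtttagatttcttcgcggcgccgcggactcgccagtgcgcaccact

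Gne, Asb10 and Irf1 each held 1 ETS match, and Gbp5 held 1 IRF match and 1 NF-kB match. The promoters of Oasl1 (higher) and Med13 (lower) held none of the 10 motifs. The AP-1 motif TGANTCA was in 7.96% of the 113 promoters overlapped by higher regions and in 2.84% of the 493 overlapped by lower regions, beside 4.77% of the 11009 promoters in shared regions and 6.99% of all 21262 promoters of the same length. The E-box CACGTG was in 2.65% of promoters in higher regions and in 8.52% of those in lower regions, beside 10.5% in shared regions and 7.84% of all. The ETS letters were in 34.5% and 27.6%, beside 29.8% and 24.8%. Among promoters in higher and lower regions, AP-1 was in 9 and 14, and the E-box in 3 and 42. NF-kB was in 1.77% and 1.01% (2 and 5 promoters), beside 1.27% and 1.28%. IRF was in 7.08% and 7.3%, beside 7.01% and 8.14%. PU.1 was in 4.42% and 3.45%, beside 3.23% and 3.13%, and C/EBP in 6.19% and 6.49%, beside 7.8% and 10.2%. CRE was in 1.77% and 1.83%, beside 3.43% and 2.23%, and NRF1 in 1.77% and 2.43%, beside 4.02% and 2.35%. RUNX was in 17 of the 113 promoters in higher regions and in 82 of the 493 in lower regions, which are similar shares. It was in 1319 of the 11009 promoters in shared regions and in 3183 of all 21262. A match gives the letters of the window, not a bound site, and these shares were not tested.

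The sides did not overlap at 1894 regions that were higher with RANKL (4.39% of shared regions) and at 2083 that were lower (4.83%). In bulk libraries, fewer cells with a region open and a less open region in each cell cannot be told apart. Most gaps were narrow. The median gap was 3.77 rank points among higher and 2.59 among lower regions, 344 and 488 had a gap under 1 point, and 41 higher against 5 lower regions had a gap of at least 20 points. Limma without replicate numbers called 0 regions higher (0.0%) and 0 lower (0.0%) at an adjusted p under 0.05. The lowest adjusted p was 0.345, and 2025 regions had an unadjusted p under 0.05 on the higher side and 1322 on the lower. Over all shared regions the median difference in mean rank, with minus without RANKL, was -0.452 points.

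Libraries with the same number deviated from their group means together, and with replicate number as a block limma called 803 regions higher with RANKL (1.86%) and 45 lower (0.104%). Of the 803, 412 were also non-overlapping over all 7 libraries, and 802 were non-overlapping within each replicate number, as were 37 and 45 of the 45. The blocked calls were selected on the same ranks, so these counts are no separate support for them. Compared within each number (2 libraries against 1, and 2 against 2), the sides did not overlap, in the same direction in both, at 4997 regions higher (11.6%) and 5510 lower (12.8%). The blocked calls depended on single libraries. Higher calls fell to 218 without RANKL replicate 1, 346 without RANKL replicate 2, 515 without RANKL+I-BET replicate 1, 90 without RANKL+I-BET replicate 2, 413 without untreated replicate 1 and 531 without I-BET replicate 2, and numbered 993 without untreated replicate 2. Lower calls in the same order numbered 5, 9, 25, 0, 13 and 19, and 53 without untreated replicate 2. With background pileup as a further term, which left 3 residual degrees of freedom, 0 regions passed in either direction (lowest adjusted p 0.122, with 2839 higher and 1288 lower at an unadjusted p under 0.05), and all 803 and all 45 kept their sign. Those regions had been selected on the same ranks, so the kept sign is no separate support either. The counts over all libraries also moved: higher regions numbered 3140 without RANKL+I-BET replicate 1, 4061 without untreated replicate 1, 3630 without untreated replicate 2 and 3290 without I-BET replicate 2. Lower regions numbered 3216 without RANKL replicate 2, and 3237, 5112, 4218 and 3820 in the order of the previous sentence; fewer libraries overlap less often by construction.

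The widest gaps on the higher side lay in and near genes of several kinds. A region inside Uox, the urate oxidase gene, at chr3:146607018-146608118, ranked at 74.5 and 55.6 in RANKL and 60.4 and 59.7 in RANKL+I-BET, against 8.78 and 17.3 in untreated cells and 19.2 in I-BET. Its summit pileups were 113, 59, 67 and 320 with RANKL and 10, 20 and 11 without it. The sides were 36.4 points apart, with a mean rank of 62.5 ± 8.26 with RANKL (SD, n = 4) and 15.1 ± 5.54 without (SD, n = 3), and the blocked limma coefficient was 1.39 ± 0.19 on the normal-score scale (SE, adjusted p = 0.00849). A region 36507 bp from Ranbp6, which encodes a relative of the nuclear import receptors, at chr19:29849481-29851773, ranked at 89.0 and 85.5 in RANKL and 69.7 and 87.4 in RANKL+I-BET, against 14.6 and 40.6 in untreated cells and 34.9 in I-BET. It had the joint lowest blocked adjusted p in these data, 0.00443 by limma, with a coefficient of 1.62 ± 0.17 (SE). The sides were well separated at both regions, and the untreated libraries differed from each other by more at Ranbp6.

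Other members of this group encode channels, receptors and signalling proteins. A region inside Ptpn22, a tyrosine phosphatase that restrains signalling in immune cells, ranked at 70.5 and 61.7 in RANKL and 69.7 and 67.9 in RANKL+I-BET, against 30.2 and 28.7 in untreated cells and 34.9 in I-BET. Both sides were compact there, with means of 67.5 ± 4.0 and 31.3 ± 3.25 (SD, n = 4 and 3). Inside Cacna1d, an L-type calcium channel gene, a region ranked at 61.1 and 47.6 in RANKL and 52.7 and 55.3 in RANKL+I-BET, against 8.78 and 20.7 in untreated cells and 15.6 in I-BET. It was the 1 higher region of 17 at Cacna1d, where 4 others were lower and the median difference was -7.6 points. Kcnab1, a potassium channel subunit gene, held one at 50.8 and 55.6 in RANKL and 57.8 and 58.7 in RANKL+I-BET, against 14.6 and 22.3 in untreated cells and 2.32 in I-BET. Gpr176, an orphan receptor gene, had a region 913 bp away with means of 63.9 ± 4.19 with RANKL and 24.6 ± 10.9 without. At the Gne promoter shown above the ranks were 55.8 and 37.2 in RANKL and 36.4 and 47.1 in RANKL+I-BET, against 8.78 and 7.33 in untreated cells and 5.1 in I-BET, and the region was near the bottom of all 3 libraries without RANKL.

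Bok, a BCL-2 family member, Celf4, an RNA-binding protein gene, and 3110040M04Rik completed the 10 widest gaps, with 27.8, 29.45 and 29.5 points, and Celf4 also held 1 lower region. All 10 passed limma with the replicate block, at adjusted p of 0.00443 to 0.0157, and 2 of the 10 lay within 1 kb of a gene end. The 10 were picked for their gap in the same ranks, so passing is no separate support for them. At Uox, 3110040M04Rik, Celf4, Bok, Gne and Cacna1d untreated replicate 1 ranked at 8.78, the rank shared by all its regions with a summit pileup of 10. At the other 4 its summit pileup was 11 or 14. In I-BET replicate 2 the summit pileup was 6 to 10 at Kcnab1, Celf4, Gne, Bok, Gpr176 and Cacna1d and 11 to 19 at the other 4, and 17.4% of its shared regions stood at 10 or less. The part of this low coverage in the gaps was not tested.

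On the lower side the widest gap lay inside Arhgef10, which encodes a guanine nucleotide exchange factor, at chr8:14985564-14987289. That region ranked at 19.3 and 14.0 in RANKL and 10.5 and 16.5 in RANKL+I-BET, against 67.3 and 43.0 in untreated cells and 47.2 in I-BET. The gap was 23.6 points, with means of 15.1 ± 3.75 with RANKL (SD, n = 4) and 52.5 ± 13.0 without (SD, n = 3), and a blocked coefficient of -1.14 ± 0.21 (SE, adjusted p = 0.016, limma). The Asb10 promoter region (chr5:24539935-24541533) ranked at 34.4 and 39.3 in RANKL and 42.9 and 42.8 in RANKL+I-BET, against 73.4 and 65.6 in untreated cells and 67.2 in I-BET. Both sides were compact, at 39.9 ± 3.99 and 68.7 ± 4.13 (blocked adjusted p = 0.02, limma).

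Genes of cell death, stress and the lysosome were among the rest. Near Bmf, a BH3-only gene that promotes apoptosis, a region ranked at 13.5 and 11.0 in RANKL and 22.4 and 18.1 in RANKL+I-BET, against 59.1 and 45.1 in untreated cells and 55.0 in I-BET. Bmf had 2 lower regions and 1 higher of 13. Inside Map3k5, which encodes the stress kinase ASK1, a region lay at the bottom of the libraries with RANKL, at 1.85 and 2.28 in RANKL and 3.91 and 2.48 in RANKL+I-BET, against 30.2 and 25.5 in untreated cells and 22.6 in I-BET. The lysosomal genes Arsb, an arylsulfatase, and Pla2g15, a phospholipase, had regions at 23.0 ± 8.45 and 27.2 ± 6.7 with RANKL, against 58.6 ± 4.28 and 58.5 ± 4.82 without. Each was the 1 lower region of its gene, of 14 at Arsb and 3 at Pla2g15, where the median differences were 0.671 and 0.78 points. Regions at Gm5431, Rph3al, a Rab effector gene, Lhx3, a LIM homeobox gene, and Ralgps1, an exchange factor gene for Ral GTPases, had gaps of 22.6, 18.0, 17.5 and 17.4 points. Of the 10, 9 passed limma with the block, at adjusted p from 0.014, and Lhx3 did not (adjusted p = 0.0519). These regions too were picked for their gap in the same ranks, so passing is no separate support.

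**Figure D2:**
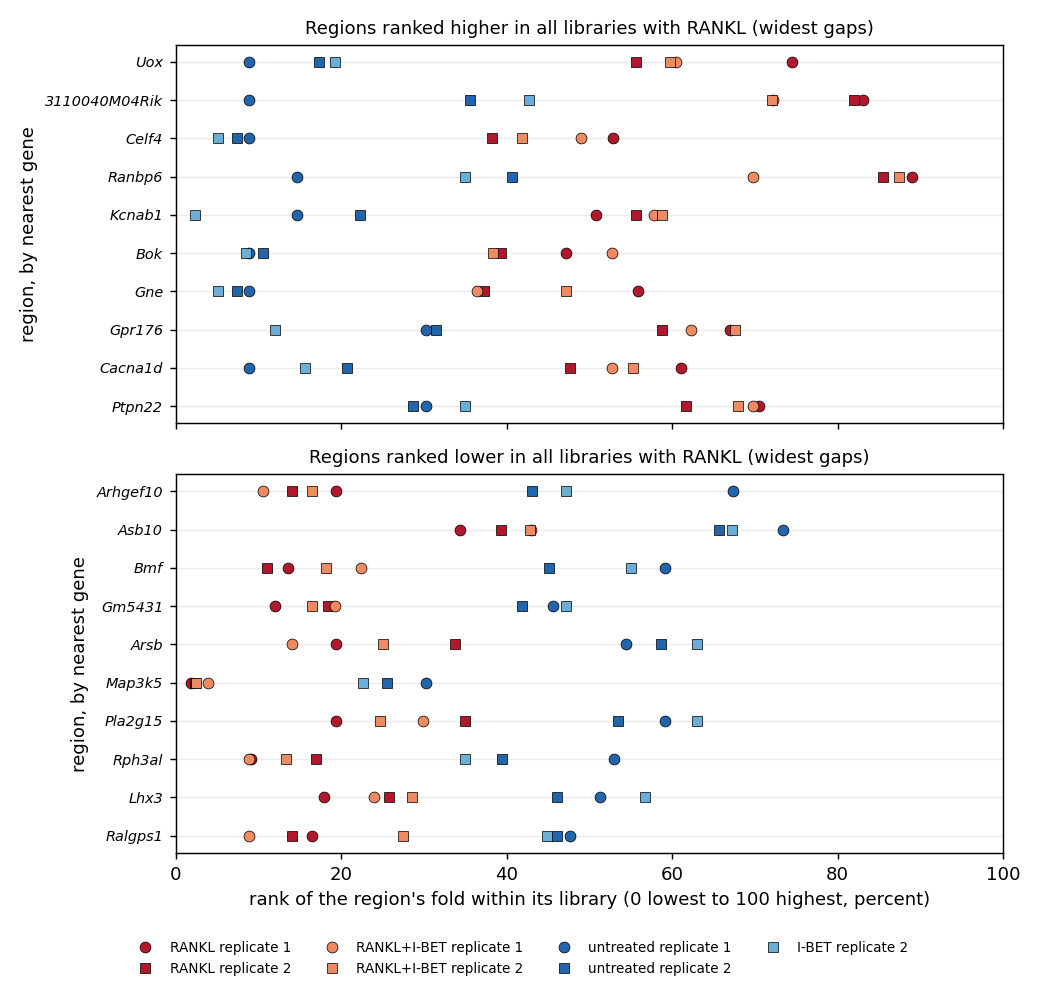
Ranks within each library (0 to 100, x axis) of the 10 regions with the widest gap in each direction, named by their nearest gene, with 1 point per library. Libraries with RANKL are red and orange and those without it are blue; at the higher regions all libraries without RANKL sit at or below 42.7, and at the lower regions all libraries with RANKL sit at or below 42.9.

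Some genes held several regions in 1 direction. Itpr1, the receptor that releases calcium from the endoplasmic reticulum, had 5 higher regions of 22 and 0 lower. The one with the widest gap, at chr6:108312980-108313592, ranked at 37.6 and 41.3 in RANKL and 32.6 and 39.2 in RANKL+I-BET, against 20.3 and 20.7 in untreated cells and 22.6 in I-BET, and 0 of the 5 passed the blocked test. Rasal2, which encodes a GTPase-activating protein for Ras, had 4 of 8, of which 2 passed with adjusted p = 0.00849 each by limma. The higher-ranked of these, at chr1:157380205-157381326, stood at 93.2 and 91.8 in RANKL and 88.1 and 95.9 in RANKL+I-BET, against 72.3 and 73.1 in untreated cells and 75.2 in I-BET. Pcdh7, a protocadherin gene, Dlg2, a synaptic scaffold gene, and Fem1c, which encodes a substrate receptor of a ubiquitin ligase, had 4 of 10 each. These genes were chosen for their counts, and 4.24% of all regions within 100 kb of a gene were higher.

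Ly86, which encodes a partner of the RP105 receptor on myeloid and B cells, had 4 lower regions of 15 and 0 higher. At chr13:37332075-37334092 the ranks were 10.5 and 22.9 in RANKL and 28.5 and 30.6 in RANKL+I-BET, against 49.6 and 47.1 in untreated cells and 61.5 in I-BET. None of the 4 passed the blocked test (adjusted p from 0.0627 to 0.282, limma). Arhgef10, Incenp, a gene of the chromosomal passenger complex, Arhgap25, which encodes a GTPase-activating protein of leukocytes, and Jmjd1c, a Jumonji-domain gene, had 3 lower regions each, of 8, 8, 10 and 10. They were the widest-gapped of 31 genes with 3 lower regions and no higher one, and 4.88% of all regions near genes were lower.

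Higher regions lay away from gene ends. Of the 1894 higher regions 165 (8.71%) lay within 1 kb of where a protein-coding gene starts or stops, against 618 of 2083 lower regions (29.7%) and 27.2% of all shared regions. Read by position, 1.41% of the 11738 regions at gene ends were higher and 5.26% were lower, while of the 1492 regions over 100 kb from a gene 8.58% were higher and 3.35% lower. The blocked calls had 5.73% of the 803 higher regions and 24.4% of the 45 lower regions at gene ends. Without untreated replicate 1, 6.6% of gene-end regions were higher and 10.5% lower, beside 9.41% and 11.8% of all shared regions. Length moved with this: the higher share was 5.73% among regions over 500 and up to 1000 bp long and 2.21% among those over 2000 and up to 5000 bp, and its part in the result was not tested.

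**Figure D3:**
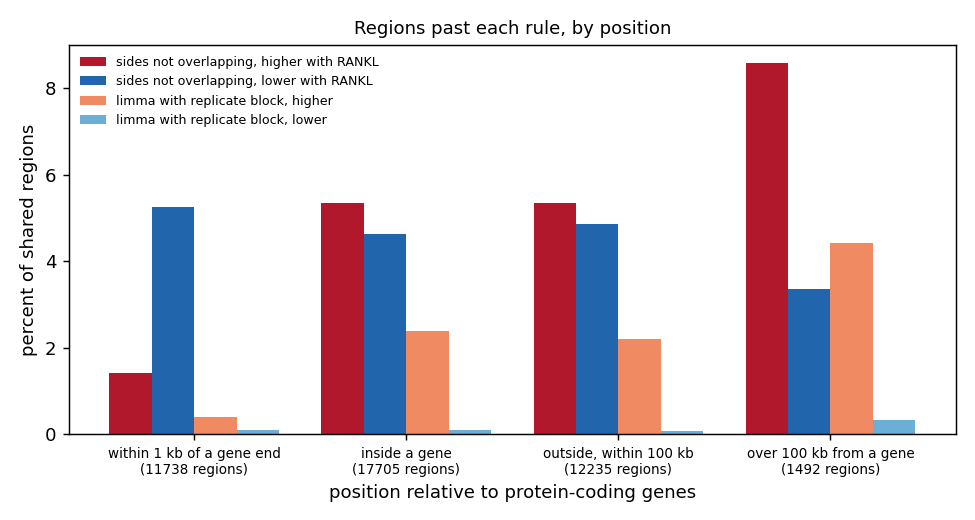
Percent of shared regions (y axis) called higher or lower with RANKL, by position relative to protein-coding genes, for regions whose sides do not overlap over all 7 libraries (dark) and for limma with the replicate block (light). Higher regions make up 1.41% of regions at gene ends and 8.58% of those over 100 kb from a gene.

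Of the pathway that RANKL feeds, RANK signalling genes had 8 higher and 11 lower regions of 147 (5.44% and 7.48%), beside 4.24% and 4.88% of all regions within 100 kb of a gene. The median difference was -0.618 points, against -0.52 over all these regions. Tnfrsf11a, the gene of the receptor RANK, had 0 of 11 regions in either direction. Map3k14, the kinase NIK that starts non-canonical NF-kB signalling, had 3 lower regions of 11, the widest gap being 27.5 and 19.9 in RANKL and 25.5 and 27.8 in RANKL+I-BET, against 47.7 and 39.4 in untreated cells and 34.9 in I-BET. Tab2, an adaptor that links TRAF6 to the kinase TAK1, held a higher region at 36.5 and 33.7 in RANKL and 35.1 and 34.0 in RANKL+I-BET, against 8.78 and 14.0 in untreated cells and 25.9 in I-BET. Plcg2, the phospholipase of calcium signalling, held a lower one, at 31.1 ± 1.87 with RANKL and 45.7 ± 4.77 without. Syk, a kinase of the costimulatory receptors, had regions in both directions. With the block 4 regions of the list passed as higher and 0 as lower (limma). They lay at Map2k6, a kinase upstream of p38, at Syk, at the kinase gene Tec and near the adaptor gene Grb2. These were 2.72% of the list, beside 1.77% of all regions near genes. Without untreated replicate 1 the list had 12 higher and 26 lower regions (8.16% and 17.7%), beside 9.22% and 12.0% of all regions near genes.

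AP-1 and early response genes had 4 higher and 4 lower regions of 136 (2.94% each), both shares under those of all regions near genes (4.24% and 4.88%). Of the list 2 regions (1.47%) passed the blocked test as higher, beside 1.77% of all regions near genes, so neither count stood above the background. The 2 regions lay near Jun and Fos, which encode AP-1 subunits. The Jun region, 49376 bp from the gene at chr4:95101598-95102360, ranked at 38.5 and 40.3 in RANKL and 32.6 and 40.7 in RANKL+I-BET, against 14.6 and 10.5 in untreated cells and 8.45 in I-BET. Its sides were 18.05 points apart (blocked coefficient 0.92 ± 0.21 SE, adjusted p = 0.0345, limma). The Fos region, 35639 bp from the gene at chr12:85512913-85514825, ranked at 44.0 and 95.7 in RANKL and 32.6 and 97.0 in RANKL+I-BET, against 3.95 (a summit pileup of 9) and 73.1 in untreated cells and 32.0 in I-BET. Its ranks differed more between replicate numbers than between the sides, which overlapped over all 7 libraries (67.3 ± 33.8 with RANKL, 36.3 ± 34.8 without), and within both numbers the libraries with RANKL were higher (1.62 ± 0.21 SE, adjusted p = 0.00757, limma with block). It was the single one of 13 Fos regions to pass. Klf4 and Ier5 held higher regions, and Fosl2, an AP-1 subunit gene, Btg2 and Ier5 lower ones. The list had 9 higher and 7 lower regions without untreated replicate 1 (6.62% and 5.15%), beside 9.22% and 12.0% of all regions near genes.

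NF-kB genes had 7 higher regions at 4 genes and 2 lower regions at 1 gene, of 108 (6.48% and 1.85%). The shares of all regions near genes were 4.24% and 4.88%. Both lower regions lay near Nfkbia, whose product IkB-alpha holds NF-kB in the cytoplasm. The wider-gapped one ranked at 47.2 and 47.6 in RANKL and 38.7 and 40.1 in RANKL+I-BET, against 58.0 and 51.7 in untreated cells and 51.3 in I-BET. On the higher side, Rel, which encodes the subunit c-Rel, held a region at 20.8 and 16.9 in RANKL and 22.4 and 36.3 in RANKL+I-BET, against 8.78 and 7.33 in untreated cells and 5.1 in I-BET. Birc2, the ubiquitin ligase cIAP1 of the TNF receptor family pathway, held one that passed with the block (97.5, 90.7, 91.9 and 94.8 with RANKL, 71.4, 78.4 and 86.6 without; adjusted p = 0.0282, limma), as did Ikbkb, the kinase that acts on IkB (adjusted p = 0.0475). These 2 were 1.85% of the list, near the 1.77% of all regions near genes. Nfkbiz, an inducible nuclear cofactor, had a region 79736 bp away at 61.8 ± 0.987 with RANKL and 49.7 ± 3.04 without. The regions given here at Nfkbia, Rel and Nfkbiz did not pass the blocked test (adjusted p = 0.367, 0.135 and 0.232, limma). Relb with 2 shared regions and Nfkb2 with 1 had 0 in either direction, and their top regions ranked at 98.3 to 99.4 and at 94.8 to 99.6 across the 7 libraries. Without untreated replicate 1 the list had 14 higher and 5 lower regions (13.0% and 4.63%), beside 9.22% and 12.0% of all regions near genes.

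Genes that feed back on ERK had 5 higher and 5 lower regions of 105 (4.76% each), near the 4.24% and 4.88% of all regions near genes. Dusp5, a nuclear phosphatase of ERK, had a region 23237 bp away that passed the blocked test, at 95.1 and 98.9 in RANKL and 83.4 and 99.0 in RANKL+I-BET, against 61.9 and 91.8 in untreated cells and 91.1 in I-BET (0.97 ± 0.14 SE, adjusted p = 0.00849, limma). The sides overlapped there over all libraries. That region was the 1 of the list to pass with the block (0.952%), beside 1.77% of all regions near genes. Spred1 and Spred2, inhibitors of Ras activation, each held 1 higher and 1 lower region, and their relative Spred3 and Errfi1, a feedback inhibitor of the EGF receptor, held lower ones. No region at these genes passed the blocked test (limma). The list had 12 higher and 14 lower regions without untreated replicate 1 (11.4% and 13.3%), beside 9.22% and 12.0% of all regions near genes.

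Inflammatory cytokine and chemokine genes had 8 higher regions at 5 genes and 1 lower of 93 (8.6% and 1.08%), with a median difference of 2.28 points. The shares of all regions near genes were 4.24% and 4.88%. Ptgs2, the inducible cyclooxygenase, had a region 42566 bp away at 88.8 and 85.5 in RANKL and 85.0 and 82.1 in RANKL+I-BET, against 61.9 and 68.5 in untreated cells and 64.4 in I-BET. The sides were 13.6 points apart, and both were compact (85.3 ± 2.72 and 64.9 ± 3.32, blocked adjusted p = 0.0149, limma). Near Acod1, which makes itaconate in activated macrophages, the ranks were 85.6 and 83.0 in RANKL and 68.4 and 78.5 in RANKL+I-BET, against 56.9 and 54.9 in untreated cells and 37.6 in I-BET (adjusted p = 0.0232, limma with block). Inside Il1rn, the gene of the antagonist that blocks the interleukin-1 receptor, they were 85.5 and 73.2 in RANKL and 82.4 and 82.3 in RANKL+I-BET, against 62.8 and 53.4 in untreated cells and 51.3 in I-BET (adjusted p = 0.0148). Regions at Il10 and at Ptges, the prostaglandin E synthase gene, also passed with the block. In all, 5 regions of the list passed (5.38%), beside 1.77% of all regions near genes. The 1 lower region lay near the chemokine gene Ccl5, at 23.4 ± 6.73 with RANKL and 37.3 ± 7.38 without, and did not pass the blocked test (adjusted p = 0.293, limma). Without untreated replicate 1 the list had 17 higher and 7 lower regions (18.3% and 7.53%), beside 9.22% and 12.0% of all regions near genes.

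Interferon response genes had 2 higher and 6 lower regions of 60 (3.33% and 10.0%), beside 4.24% and 4.88% of all regions near genes. Of the lower regions, 1 lay inside Usp18, a protease that restrains interferon signalling, at 38.5 and 36.1 in RANKL and 37.6 and 44.6 in RANKL+I-BET, against 60.1 and 54.9 in untreated cells and 55.0 in I-BET. The Gbp5 promoter region ranked low throughout, at 12.0 and 9.5 in RANKL and 5.5 and 3.83 in RANKL+I-BET, against 14.6 and 19.0 in untreated cells and 15.6 in I-BET. Irf1 had 2 lower regions of 10, and the region over its promoter (chr11:53768626-53771981) overlapped between the sides by 1.3 points but passed the blocked test as lower. It ranked at 77.6 and 67.1 in RANKL and 85.3 and 72.2 in RANKL+I-BET, against 92.3 and 84.3 in untreated cells and 84.0 in I-BET (-0.5 ± 0.12 SE, adjusted p = 0.0414, limma). Ifi44 and Oasl1, a relative of the oligoadenylate synthetases, held the 2 higher regions. The regions named here at Usp18, Gbp5, Ifi44 and Oasl1 did not pass the blocked test (adjusted p = 0.143, 0.365, 0.0582 and 0.219, limma). The list had 7 higher and 8 lower regions without untreated replicate 1 (11.7% and 13.3%), beside the 9.22% and 12.0% of all regions near genes.

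**Figure D4:**
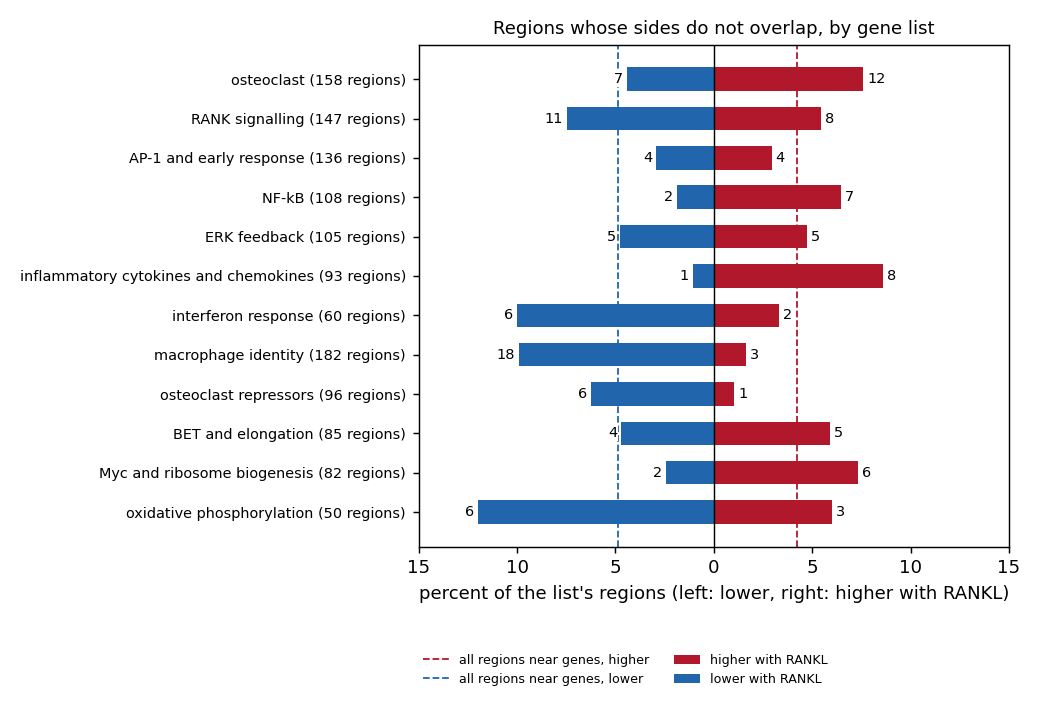
Percent of each list's shared regions whose sides did not overlap (x axis), higher with RANKL to the right and lower to the left, with the number of regions at each bar; dashed lines give the shares of all regions within 100 kb of a gene (4.24% higher, 4.88% lower). Macrophage identity genes have 18 lower and 3 higher regions, and inflammatory genes 1 lower and 8 higher.

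Genes of the osteoclast itself had 12 higher regions at 10 genes and 7 lower at 7 genes, of 158 (7.59% and 4.43%), with a median difference of 2.27 points. The shares of all regions near genes were 4.24% and 4.88%. Nfatc1, the master regulator, had 11 shared regions, of which 1 was higher, inside the gene at chr18:80607701-80612799. It ranked at 82.4 and 75.1 in RANKL and 78.6 and 75.2 in RANKL+I-BET, against 71.4 and 71.2 in untreated cells and 61.5 in I-BET, a gap of 3.71 points that did not pass the blocked test (adjusted p = 0.253, limma). The region over an end of Nfatc1 averaged 79.1 ± 4.99 with RANKL and 78.2 ± 5.54 without. Atp6v0d2, a proton pump subunit needed for cell fusion, had the widest gap of the list, at 59.0 and 37.2 in RANKL and 60.4 and 51.2 in RANKL+I-BET, against 20.3 and 19.0 in untreated cells and 22.6 in I-BET (14.6 points, blocked adjusted p = 0.0304, limma), and also held 1 lower region of its 7. Mitf, a transcription factor that cooperates with NFATc1, held a region at 44.8 and 46.7 in RANKL and 49.8 and 50.8 in RANKL+I-BET, against 3.95 (a summit pileup of 9) and 17.3 in untreated cells and 37.6 in I-BET (adjusted p = 0.0415, limma with block).

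Cd44 and Cd9, surface proteins linked to fusion, each had a region that passed with the block as higher, and Cd44 had 2 non-overlapping higher regions. With those at Atp6v0d2 and Mitf, 4 regions of the list passed (2.53%), beside 1.77% of all regions near genes. Ctsk, the collagen-degrading cathepsin K, had 1 higher region of 4, 1509 bp from the gene, at 84.3 and 84.9 in RANKL and 82.5 and 91.5 in RANKL+I-BET, against 71.0 and 79.6 in untreated cells and 72.1 in I-BET. Its gene-end region followed the replicate numbers instead, at 39.5 and 11.0 in RANKL and 64.7 and 10.7 in RANKL+I-BET, against 52.9 and 12.2 in untreated cells and 15.6 in I-BET. Acp5, the tartrate-resistant acid phosphatase gene, had 0 of 3 regions in either direction, with differences of -20.3 to -8.09 points. Lower regions lay near Prdm1, a repressor of anti-osteoclast genes (9.52 ± 3.68 with RANKL, 29.4 ± 6.03 without), inside the gelatinase gene Mmp9 and near Cd9. These lower regions did not pass the blocked test (adjusted p = 0.121, 0.391 and 0.196, limma), nor did the higher Ctsk region (0.0674). Without untreated replicate 1 the list had 25 higher and 19 lower regions (15.8% and 12.0%), beside 9.22% and 12.0% of all regions near genes.

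Macrophage identity genes had 18 lower regions at 13 of 27 genes and 3 higher at 2 genes, of 182 (9.89% and 1.65%). Of all 41678 regions near genes 4.88% were lower and 4.24% higher, and 1745 of the 14016 genes with such a region had a lower one. The macrophage genes held more regions per gene (182 at 27 genes), so the counts of genes are not on a like footing. The median difference of the macrophage list was -1.78 points. Without untreated replicate 1 it had 43 lower and 7 higher regions (23.6% and 3.85%), beside 12.0% and 9.22% of all regions near genes. Ctss, the lysosomal cathepsin S of antigen-presenting cells, had the widest gap, 2477 bp from the gene, at 19.3 and 28.6 in RANKL and 22.4 and 30.6 in RANKL+I-BET, against 47.7 and 46.1 in untreated cells and 44.9 in I-BET. The fractalkine receptor gene Cx3cr1 had a region at 13.1 ± 7.76 with RANKL and 29.5 ± 4.33 without, and Maf, a transcription factor of tissue macrophages, 1 at 45.8 ± 2.29 and 55.6 ± 1.15. The higher regions lay near Zeb2 and Runx1, transcription factors of the myeloid lineage, which also held lower ones: Zeb2 had 1 higher and 3 lower of 14 regions and Runx1 2 of each of 26. No region at Ctss, Cx3cr1, Maf, Zeb2 or Runx1 passed the blocked test (limma). Adjusted p was 0.124, 0.236 and 0.38 at the lower regions given for Ctss, Cx3cr1 and Maf.

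Repressors of the osteoclast fate had 6 lower regions at 6 genes and 1 higher of 96 (6.25% and 1.04%), with a median difference of -2.86 points. Of all regions near genes 4.88% were lower and 4.24% higher. Irf8, which holds back osteoclast formation, had 1 lower region of 12, at 6.44 and 8.09 in RANKL and 15.7 and 8.14 in RANKL+I-BET, against 30.2 and 25.5 in untreated cells and 19.2 in I-BET (blocked adjusted p = 0.168, limma). The median difference over its 12 regions was -7.09 points. Near Bcl6, a transcriptional repressor, a region ranked at 67.0 and 63.4 in RANKL and 67.0 and 67.0 in RANKL+I-BET, against 75.0 and 75.0 in untreated cells and 81.7 in I-BET. Irf2 and Pparg held further lower regions, and the gene-end region of Irf4 was higher. The regions at Bcl6, Irf2, Pparg and Irf4 did not pass the blocked test (adjusted p = 0.17, 0.193, 0.0849 and 0.155, limma). The list had 4 higher and 13 lower regions without untreated replicate 1 (4.17% and 13.5%), beside 9.22% and 12.0% of all regions near genes.

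**Figure D5:**
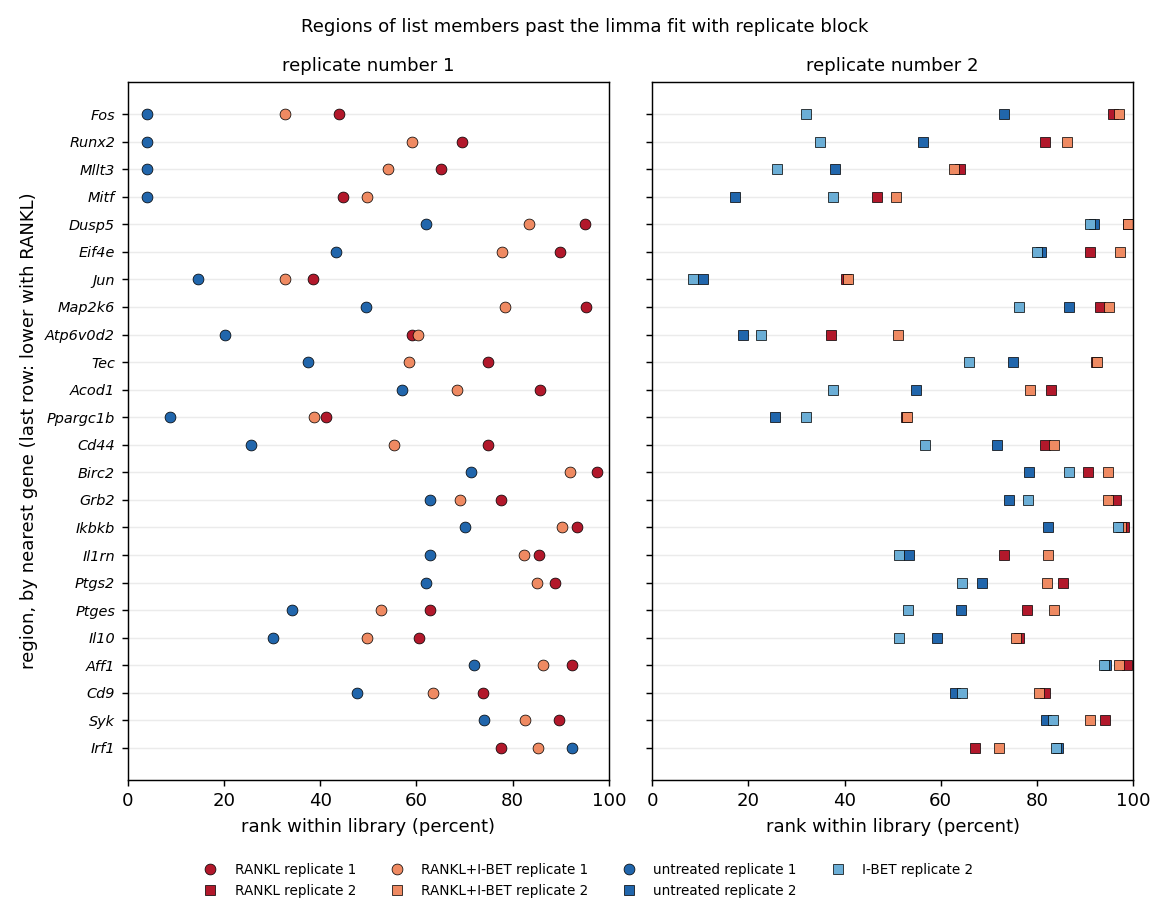
Ranks (0 to 100, x axis) of 24 regions of gene-list members that passed limma with the replicate block, split by replicate number, with 1 point per library; the last row, Irf1, is lower with RANKL. Within each number the libraries with RANKL (red, orange) lie on 1 side of those without it (blue). At several regions, including those at Fos, Tec, Aff1, Grb2, Dusp5 and Ptges, the mean ranks of the 2 numbers differ by more than those of the sides do.

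Of the genes tied to the inhibitor and to growth, BET and elongation genes had 5 higher regions at 2 genes and 4 lower at 4 genes, of 85 (5.88% and 4.71%). The shares of all regions near genes were 4.24% and 4.88%. Mllt3, a subunit of the super elongation complex, held a region at 65.0 and 64.0 in RANKL and 54.1 and 62.8 in RANKL+I-BET, against 3.95 (a summit pileup of 9) and 38.1 in untreated cells and 25.9 in I-BET (adjusted p = 0.0136, limma with block). Its partner gene Aff1 had 3 higher regions of 15, and a further region that passed with the block. The blocked calls at Mllt3 and Aff1 were 2.35% of the list, beside 1.77% of all regions near genes. The elongation factor genes Ell and Ell2 held lower regions, as did Med13, a Mediator subunit gene, over its promoter (78.2 ± 3.08 with RANKL, 87.0 ± 1.66 without). These lower regions did not pass the blocked test (adjusted p = 0.293, 0.169 and 0.121, limma). Leaving out untreated replicate 1 gave this list 7 higher and 13 lower regions (8.24% and 15.3%), below and above the 9.22% and 12.0% of all regions near genes. Myc and ribosome biogenesis genes had 6 higher and 2 lower regions of 82 (7.32% and 2.44%), beside the 4.24% and 4.88% of all regions near genes. Myc itself had 2 higher regions of 7, 52782 and 65267 bp from the gene, and at chr15:62055628-62058028 the ranks were 81.6 and 82.0 in RANKL and 80.9 and 85.8 in RANKL+I-BET, against 73.0 and 74.5 in untreated cells and 73.2 in I-BET. Lower regions lay in Mxi1 and near Mxd1, which encode antagonists of Myc. The 2 higher Myc regions did not pass the blocked test (adjusted p = 0.289 and 0.149, limma), nor did those at Mxi1 and Mxd1 (0.19 and 0.415). Compared within each replicate number the list had 7 higher and 10 lower regions (8.54% and 12.2%, beside 11.3% and 12.9% of all regions near genes), and without untreated replicate 1 it had 10 and 8 (12.2% and 9.76%). Oxidative phosphorylation genes had 3 higher and 6 lower regions of 50 (6.0% and 12.0%), beside 4.24% and 4.88% of all regions near genes. The lower ones lay at Cox5a, Ndufs1, Atp5o and 2 other genes. A region inside the coactivator gene Ppargc1b passed as higher with the block (adjusted p = 0.0338, limma), and no region of the list passed as lower. The higher call was 2.0% of the list, beside 1.77% of all regions near genes. Leaving out untreated replicate 1 gave that list 3 higher and 13 lower regions (6.0% and 26.0%), beside 9.22% and 12.0% of all regions near genes.

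Markers of other cell types had few regions. B lymphocyte markers had 0 in either direction of 7, granulocyte and erythroid markers 0 of 4, and T lymphocyte markers 1 higher of 9, inside Gata3. Fibroblast and osteoblast markers had 1 in each direction of 15. Of all regions near genes 4.24% were higher and 4.88% lower, and at such shares lists this small would hold few or none. A region inside Runx2, known as the osteoblast master regulator, passed the blocked test as higher, at 69.5 and 81.7 in RANKL and 59.0 and 86.3 in RANKL+I-BET, against 3.95 (a summit pileup of 9) and 56.4 in untreated cells and 34.9 in I-BET (1.52 ± 0.21 SE, adjusted p = 0.00849, limma). That was 1 of the 15 regions (6.67%), beside 1.77% of all regions near genes. Col1a1 held the lower region, at 1.07 to 4.26 with RANKL and 8.45 to 15.6 without. The regions at Gata3 and Col1a1 did not pass the blocked test (adjusted p = 0.0785 and 0.237, limma).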

How the data were processed

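Open chromatin was measured by ATAC-seq in 7 libraries of RAW264.7 cells, 50000 cells each, with paired-end reads of 100 bp per the labels' protocols. MACS2, Bowtie2, SAMtools, Picard, FastQC, cutadapt and bedtools are named with mm10 in the submitters' processing notes; versions and settings are not given in the sources used here. Every library has its own list of peaks from the authors, called per sample. Each deposited line holds a score, the −log10 of a p-value and of a q-value, and a fold (the ratio of summit pileup to background, each plus 1, with 1 background value per library); these are the authors' values and were used only to rank or filter peaks within 1 list. Within every list a fold had 1 value of −log10 p, so ranking by either gave the same order.

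Overlapping or book-ended peaks were joined, regions with a peak in all 7 lists kept, and each library's highest fold per region ranked (ties averaged). Limma 3.58.1 (R 4.3.3, trend) was fitted to normal scores of the ranks over all 43170 regions, with Benjamini-Hochberg adjustment and a threshold of 0.05. The fit without the block was checked on data simulated with independent noise in each library. The blocked fit, which made all the calls, was not checked in this way. Other steps used Python 3.11.15 with numpy 2.4.6, pandas 2.3.3 and scipy 1.17.1. The score column was not used. Background and summit pileup were solved from fold and −log10 p, since fold times background plus 1 gave whole numbers for 99.63% to 100.0% of folds; read counts are not given, so no counting intervals are printed.

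The fit without replicate numbers was the planned one. The labels give no shared day or batch, but deviations of same-numbered libraries from their group means correlated over regions at 0.614 (RANKL and RANKL+I-BET), 0.42 (RANKL and untreated) and 0.582 (RANKL+I-BET and untreated), so the numbers were taken as pairing the libraries and blocked values stand beside the others. Genes came from a GRCm38.p6 table of RefSeq with 21896 protein-coding genes, and 96.5% of regions had one within 100 kb; the table has no strand or exons, so gene ends stand for promoters there and exons and introns are not separated. Promoter windows are RefSeq's.

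Named regions were the 10 widest gaps in each direction, the 3 widest per gene list and direction, the 5 genes with most regions in 1 direction and none in the other (ties by widest gap), and Nfatc1, Fos, Jun, Myc, Irf8, Rel, Relb, Nfkbia, Nfkb2, Acp5, Ctsk and Tnfrsf11a; list members named for the blocked test alone were chosen after their values were seen. The comparison, the lists and the tests were chosen with earlier results of these data known. Of 28 interferon response genes 26 were in the table, and all members of the other lists were. Alternatives were other region sets, the replicate block, I-BET or background pileup as terms, array weights, rank fractions and leaving out each library. 1 result on a gene-list member is not reported here.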

Additional observations from a re-analysis of the deposited data

Results flagged for a closer look

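Among the 84 regions named by gap, 4 had 1 library with RANKL far from the other 3 of that side, relative to the range of that side. Chance gives about 1 such group in 20, so 4 of 84 is near what chance gives. Near Fosl2, at position 32111661 on chromosome 5, RANKL replicate 1 ranked at 38.5, against 62.2 to 63.4 in the other 3 libraries with RANKL, so most of the lower mean of that region came from 1 library. Over the Oasl1 promoter, at 114922769 on chromosome 5, RANKL replicate 1 ranked at 82.9, against 69.4 to 71.4. Near Irf2, at 46849852 on chromosome 8, RANKL replicate 1 ranked at 51.5, against 63.2 to 63.5. Near Bcl6, at 24075656 on chromosome 16, RANKL replicate 2 ranked at 63.4, against 67.0 in each of the others.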

How the results depend on the processing

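Ranking by the highest −log10 p keeps the order of the folds and so gave the same 1894 higher and 2083 lower regions. Lists of equal length gave 1807 and 1985. Smaller region sets gave fewer: 1086 and 1137 with a −log10 q of at least 5, 806 and 782 with peaks covering at least 50% of the region, 752 and 738 with regions of at most 1 kb, and 779 and 788 with summits within 200 bp. Leaving out 1 library gave 2155 to 4061 higher and 2506 to 5112 lower regions. The replicate block, as no overlap within each number, gave 4997 and 5510. Limma without the block called 0 regions in either direction under every alternative run without the block, and 0 with the block and background pileup. With the replicate block it called 803 higher and 45 lower regions. Combinations added after the data were seen gave 925 and 62 with I-BET as a further term, 606 and 39 with a −log10 q of at least 5, 804 and 50 with lists of equal length, 255 and 13 with 50% covered, 190 and 20 with at most 1 kb, and 452 and 33 with summits within 200 bp. Under the block, leaving out 1 library gave 218 and 5 calls (RANKL replicate 1), 346 and 9 (RANKL replicate 2), 515 and 25 (RANKL+I-BET replicate 1), 90 and 0 (RANKL+I-BET replicate 2), 413 and 13 (untreated replicate 1), 993 and 53 (untreated replicate 2) and 531 and 19 (I-BET replicate 2). The 90 without RANKL+I-BET replicate 2 were all among the 803, as were 670 of the 993 without untreated replicate 2; the cause of these moves was not tested. List counts held within 1.5 times with genes within 50 kb, and 23 of 32 moved further without untreated replicate 1, also chosen after the data were seen. Leaving out that library also took all shared regions from 1894 to 4061 higher and from 2083 to 5112 lower. Moves of the lists are therefore not particular to them. Ranks of −log10 p could not change the list counts, as the order is the same. No named region changed direction under its alternatives. For regions named by their gap this was fixed in advance when 1 library was left out or −log10 p was ranked. Depth limits the low ranks most: 11.6% of shared regions in untreated replicate 1 and 17.4% in I-BET replicate 2 had a summit pileup of 10 or less, where many regions share a rank.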

Other observations

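Some regions with the lowest blocked p lay outside the gene lists and overlapped between the sides over all 7 libraries (chosen after their values were seen). Near Sdc1, the syndecan-1 gene, the ranks were 88.6 and 96.9 in RANKL and 75.4 and 96.7 in RANKL+I-BET, against 30.2 and 82.2 in untreated cells and 74.2 in I-BET (1.23 ± 0.14 SE on the normal-score scale, adjusted p = 0.00443, limma with replicate block). Inside Map3k4, a kinase gene of the p38 and JNK pathways, they were 89.8 and 99.0 in RANKL and 67.0 and 99.1 in RANKL+I-BET, against 8.78 (a summit pileup of 10) and 88.4 in untreated cells and 73.2 in I-BET (1.74 ± 0.21 SE, adjusted p = 0.00443). A region 245960 bp from Klf4, too far to be assigned to it above, ranked at 83.8 and 96.4 in RANKL and 70.6 and 94.6 in RANKL+I-BET, against 40.5 and 71.2 in untreated cells and 51.3 in I-BET (1.25 ± 0.16 SE, adjusted p = 0.00729).

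Among the lower calls, a region inside Vsir, which encodes the immune checkpoint protein VISTA, stood at 55.2 and 49.2 in RANKL and 62.3 and 60.2 in RANKL+I-BET, against 80.2 and 79.2 in untreated cells and 78.2 in I-BET, and its values without RANKL spanned 2 points (-0.66 ± 0.13 SE, adjusted p = 0.021, limma with replicate block). Vsir had 5 lower regions and 1 higher of 11. At an end of Tcn2, the transcobalamin gene, the ranks were 1.07 and 1.37 in RANKL and 7.13 and 2.3 in RANKL+I-BET, against 61.0 and 20.7 in untreated cells and 15.6 in I-BET (adjusted p = 0.0251).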
